A study of Homo sapiens with 4 samples.

Results

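CRISPLD2 and 5 genes of the glucocorticoid response were examined in BEAS2B cells after knockdown of QKI. The 6 genes are CRISPLD2, NR3C1, TSC22D3, PER1, DUSP1 and KLF9, of 16708 genes listed in at least 1 of the 4 libraries. They were chosen by symbol, as the glucocorticoid receptor gene and its airway target genes, because CRISPLD2 was already known to be lower in QKI-knockdown cells of these libraries. The sh-QKI against sh-Ctrl values of the 6 genes are therefore given as a description with no test, and the question asked of the other 5 is whether they share the fall of CRISPLD2. All 6 passed the low-value filter, a mean of at least 0.5 RPKM (reads scaled to gene length and to library total) over the 4 libraries, which left 11829 genes for the tests.

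BEAS2B is a human bronchial epithelial line immortalised with a virus. Cells of both groups carried a retroviral vector for a short hairpin RNA. The hairpin targeted QKI in the sh-QKI group (named sh-Q3 by the study) and luciferase in the sh-Ctrl group. No glucocorticoid is named as a treatment of either group, and the medium held serum. Each group has 2 libraries, numbered replicate 1 and replicate 2, and the study sequenced RNA of both groups on 2 occasions with different read lengths. The labels do not tie a replicate number to a read length. No source says whether the 2 libraries of a group are from different cultures, so p-values measure only the spread between these libraries. The fits estimate that spread partly from other genes, so a p-value need not reflect how well a gene's own libraries agree. One hairpin was sequenced, so an effect of QKI loss and an effect of that hairpin sequence cannot be told apart.

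Glucocorticoids enter cells and bind the receptor encoded by NR3C1, which is held ready in the cytoplasm by HSP90 and its co-chaperones. The receptor then moves to the nucleus, binds response elements in DNA, raises the transcription of a set of target genes and lowers that of many inflammatory genes. In airway cells this is the basis of inhaled steroid treatment of asthma. TSC22D3 encodes GILZ, an inhibitor of NF-kB and AP-1. DUSP1 encodes a phosphatase that switches off p38, JNK and ERK kinases. PER1 is a repressor of the circadian clock and KLF9 a Kruppel-like transcription factor. CRISPLD2 is a secreted protein of the CAP superfamily, known as a steroid-induced gene of airway smooth muscle that restrains cytokine production. QKI is an RNA-binding protein that recognises ACUAAY in RNA, where Y is C or U.

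The sequence by which QKI was depleted is shown first, because it sets what the hairpin can pair with. The hairpin target, read from the study's list of oligonucleotides, occurred in the Ensembl-canonical transcript of 1 gene among 11434 searched, which was QKI. There it lies in the coding part, at chr6:163956115-163956133 on the plus strand of hg19. Capitals mark the bases opposite guide positions 2 to 8, the seed by which a small RNA can pair with other mRNAs, if the guide starts opposite the last base.
sh-Q3 target: gaagagagcagTTGAAGAa
The 7 capital letters occurred once each in the canonical transcripts of TSC22D3 and KLF9 and not in those of CRISPLD2, NR3C1, PER1 and DUSP1. They occurred in 41.0% of the transcripts searched.

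The letters that QKI recognises, ACTAAC or ACTAAT as DNA, were searched on the sense strand of the same transcripts. They were found 4 times in NR3C1, 2 times in KLF9 and once in DUSP1, and were not found in CRISPLD2, TSC22D3 or PER1. In all, 48.0% of transcripts held at least 1 match. The CRISPLD2 transcript searched has 4583 bases, 2869 of them in the 3′ UTR. The matches are shown with 12 bases before and after, motif in capitals, since the genes differ in whether they hold one. The 4 NR3C1 matches lie in the 3′ UTR on chromosome 5, the 2 KLF9 matches in the 3′ UTR on chromosome 9, and the DUSP1 match in the coding part, all on the minus strand of hg19.
NR3C1, chr5:142660540-142660569: tggttgcaaaagACTAATttaaaaaataac
NR3C1, chr5:142659871-142659900: atattggtattcACTAATctgggaagggaa
NR3C1, chr5:142659263-142659292: tgccaataatacACTAATtcctttctatcc
NR3C1, chr5:142658438-142658467: cccaaaaggaaaACTAACatgatttgtgtc
KLF9, chr9:73001974-73002003: gtctgaatttatACTAATcaagacaaacct
KLF9, chr9:73001256-73001285: aatagcctcaccACTAATatatcttgtatc
DUSP1, chr5:172196026-172196055: taccttatgaggACTAATcgagtcaagctg
A match is a run of letters and not a shown binding site, introns were not searched, and nothing about QKI binding is drawn from a match or from its absence.

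Promoters were taken from RefSeq (GRCh38.p14), 250 bases before to 50 after the start, and searched on both strands. The shares given over promoters use 1 start site for each gene and leave out 1 chromosome, on which none of the 6 genes lies. All 6 genes matched by symbol, NR3C1 with 7 start sites and TSC22D3 with 4. None of these windows held the receptor's full response element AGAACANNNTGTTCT, which 0.00366% of 27305 promoters held, or its half-site AGAACA, which 14.9% held. An exact full element is so rare that its absence from a few windows carries no information. Sequence outside the windows was not searched, and nothing about receptor binding is drawn from these absences. The promoters of CRISPLD2, PER1 and DUSP1 are shown as 3 examples that differ in what their windows hold. Capitals mark the GC box GGGCGG (44.6% of promoters), the E-box CACGTG bound by clock factors (7.43%) and the cyclic AMP response element TGACGTCA (1.98%).
CRISPLD2, chr16:84819735-84820034, plus strand: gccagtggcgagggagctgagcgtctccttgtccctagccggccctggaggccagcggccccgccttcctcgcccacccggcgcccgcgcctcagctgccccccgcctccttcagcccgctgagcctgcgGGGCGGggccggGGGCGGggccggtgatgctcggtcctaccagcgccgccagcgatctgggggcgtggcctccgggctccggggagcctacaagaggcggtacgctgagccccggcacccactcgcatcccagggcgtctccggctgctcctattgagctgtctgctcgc
PER1, chr17:8152355-8152654, minus strand: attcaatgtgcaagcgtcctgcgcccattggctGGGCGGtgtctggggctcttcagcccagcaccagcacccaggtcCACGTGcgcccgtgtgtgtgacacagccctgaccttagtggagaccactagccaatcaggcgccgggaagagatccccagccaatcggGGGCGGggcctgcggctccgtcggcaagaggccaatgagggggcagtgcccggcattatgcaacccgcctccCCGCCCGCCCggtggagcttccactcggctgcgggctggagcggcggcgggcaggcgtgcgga
DUSP1, chr5:172771146-172771445, minus strand: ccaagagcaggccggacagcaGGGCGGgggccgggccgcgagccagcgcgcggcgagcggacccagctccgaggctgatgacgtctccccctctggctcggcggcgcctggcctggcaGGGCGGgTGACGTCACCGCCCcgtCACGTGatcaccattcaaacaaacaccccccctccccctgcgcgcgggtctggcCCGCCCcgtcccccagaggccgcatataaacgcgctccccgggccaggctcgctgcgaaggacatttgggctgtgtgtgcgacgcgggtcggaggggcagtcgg
CRISPLD2 held 2 GC boxes and none of the other motifs. PER1 held 4 GC boxes, of which 2 overlap, and 1 E-box, and DUSP1 held 4 GC boxes, 1 E-box and 1 cyclic AMP response element, which abuts a GC box. The KLF9 window held none of the 5 motifs.

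The targeted gene was low in the libraries labelled as knockdown. QKI was at 2.52 and 3.85 RPKM in sh-QKI replicates 1 and 2, against 8.94 and 14.6 RPKM in sh-Ctrl replicates 1 and 2, which is 28.2% and 26.4% of control within the same number. Totals that the authors divided by, recovered from the RPKM values, were 20571555 and 34862008 reads in sh-QKI and 20052951 and 34706058 reads in sh-Ctrl, so replicate 2 is the deeper one in both groups. Between 15159 and 15587 genes were listed per library. The 2 replicate numbers differed far more than the 2 groups did. The log2 difference between replicate 2 and replicate 1 had an SD over genes of 0.66 in sh-QKI and 0.81 in sh-Ctrl, whereas that between sh-QKI and sh-Ctrl had an SD of 0.20 within replicate 1 and 0.21 within replicate 2. The group differences of the 6 genes are therefore given within each number as well.

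The epithelial label was met in part. Of 10 epithelial markers 5 reached the filter, and the summed RPKM of the list was 697 and 271 in sh-QKI and 739 and 225 in sh-Ctrl. The 5 had a median log2 difference of 0.12, with -0.13 in replicate 1 and 0.23 in replicate 2, and 0 of them had a mean difference below 0. Of the 5, KRT18 and EPCAM were above control within both numbers, against 31.7% of all genes tested. In 1 of the 5 the groups did not overlap, with sh-QKI higher, against 5.71% of all genes tested. KRT8, a keratin of simple epithelia, was at 227 and 109 RPKM in sh-QKI and 248 and 91.5 RPKM in sh-Ctrl. CDH1 (E-cadherin) was at most 0.18 RPKM in any library, and the basal keratins KRT5 and KRT14 were not listed. Of 9 ciliated and secretory markers only CAPS reached the filter, and none of 6 endothelial markers did. Of 12 fibroblast and smooth muscle markers 5 reached it, COL1A1, PDGFRB and THY1 among them, with a summed RPKM of 137 and 126 in sh-QKI and 148 and 103 in sh-Ctrl, while COL1A2 was at 0.00 RPKM to 2 decimals and DCN was not listed. Of 8 leukocyte markers CD68 and CD14 reached the filter, and the list summed to 15.5 and 17.1 RPKM in sh-QKI and 18.1 and 21.4 RPKM in sh-Ctrl. PTPRC, the common leukocyte antigen, was at most 0.01 RPKM. The ciliated and secretory list summed to 0.80 and 0.77 RPKM in sh-QKI and 0.98 and 0.84 RPKM in sh-Ctrl, with CAPS lower without overlap. These 2 sums moved in the same direction as CRISPLD2 in both numbers, and their part in the result was not tested.

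CRISPLD2 (ENSG00000103196, chr16:84853591-84954374, plus strand, hg19) was at 2.84 and 2.12 RPKM in sh-QKI, against 5.26 and 4.58 RPKM in sh-Ctrl. Both sh-QKI libraries lay below both sh-Ctrl libraries, and the groups did not overlap. The means were 2.48 ± 0.51 RPKM in sh-QKI and 4.92 ± 0.48 RPKM in sh-Ctrl (SD, n = 2 each). Within replicate 1 the level was 54.0% of control, a log2 difference of -0.79 on the log2(RPKM + 0.5) scale used throughout, and within replicate 2 it was 46.3% of control, a log2 difference of -0.95. The mean log2 difference was -0.87 with a standard error of 0.28 in the limma fit with group as the only term. Standard errors of group differences below are from the same fit unless stated. These values rest on 271 and 343 recovered reads in sh-QKI and 489 and 737 in sh-Ctrl. In bulk RNA, fewer cells that express a gene and less of its RNA per cell cannot be told apart.

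**Figure D1:**
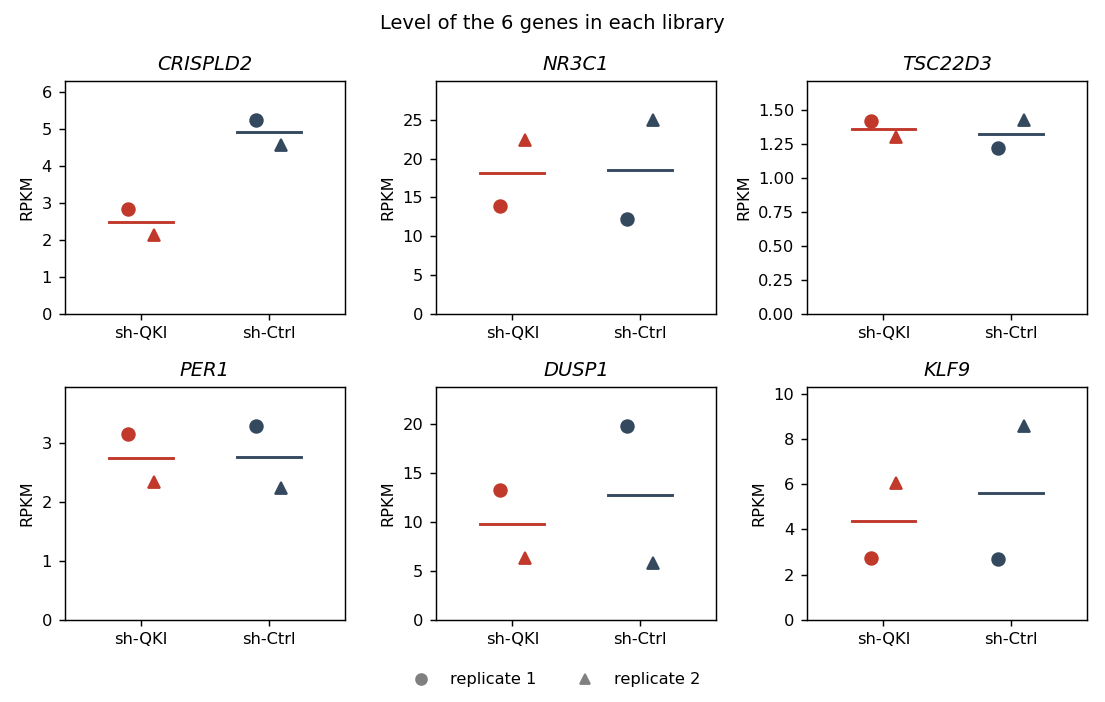
RPKM (y axis, from 0, a scale for each gene) of the 6 genes in the sh-QKI libraries (left, red) and the sh-Ctrl libraries (right, blue), with circles for replicate 1, triangles for replicate 2 and a bar at the mean of the 2 libraries. For CRISPLD2 both sh-QKI points, at 2.84 and 2.12 RPKM, lie below both sh-Ctrl points, whereas for each of the other 5 genes the groups overlap.

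To place these values, 342 of the 11829 genes tested (2.89%) had both sh-QKI libraries below both sh-Ctrl libraries, and 675 (5.71%) had both above. CRISPLD2 was among the 342, and none of the other 5 genes was in either set. A decrease within both numbers was seen in 16.6% of the genes tested and an increase within both in 31.7%. Since the contrast chose the genes, nothing is read from these counts about the 6. Each of the other 5 differed from control in opposite directions within the 2 numbers.

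NR3C1, the receptor itself (chr5:142657496-142815077, minus strand), was at 13.9 and 22.4 RPKM in sh-QKI, against 12.2 and 25.0 RPKM in sh-Ctrl. It was at 115% of control within replicate 1 and at 89.6% within replicate 2, and the mean log2 difference was 0.02 with a standard error of 0.47. The 2 libraries of each group lay far apart, and the replicate 2 library was the high one in both groups. The levels rest on between 4974 and 17689 recovered reads per library. The fall of CRISPLD2 was thus accompanied by receptor mRNA that was slightly above control in one number and slightly below it in the other.

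TSC22D3 (chrX:106956451-107020572, minus strand), the GILZ gene, was at 1.42 and 1.30 RPKM in sh-QKI, against 1.23 and 1.43 RPKM in sh-Ctrl. The 4 libraries lay within a narrow band, and the order of the groups turned round between the numbers, at 116% of control within replicate 1 and 91.2% within replicate 2. Its mean log2 difference was 0.03 with a standard error of 0.25. It has between 154 and 311 recovered reads per library, and 71 bases of its exons are shared with exons of NCBP2L, so a few of them may belong to that gene.

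PER1 (chr17:8043790-8059824, minus strand) was at 3.14 and 2.34 RPKM in sh-QKI, against 3.28 and 2.23 RPKM in sh-Ctrl. Libraries of the same number were nearly level, at 95.7% of control within replicate 1 and 105% within replicate 2. The mean log2 difference was 0.00 with a standard error of 0.32, on 370 to 467 recovered reads in sh-QKI and 377 to 443 in sh-Ctrl. Its read depth is thus like that of CRISPLD2, and its exons overlap those of another annotated gene by 30 bases.

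DUSP1 (chr5:172195099-172198198, minus strand) was at 13.2 and 6.32 RPKM in sh-QKI, against 19.8 and 5.75 RPKM in sh-Ctrl. It was at 66.7% of control within replicate 1 and at 110% within replicate 2, with log2 differences of -0.57 and 0.13. The low value of replicate 1 was not repeated in replicate 2, and the replicate 1 libraries of both groups lay above both replicate 2 libraries. The mean log2 difference was -0.22 with a standard error of 0.71.

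KLF9 (chr9:72999520-73029573, minus strand) was at 2.72 and 6.05 RPKM in sh-QKI, against 2.68 and 8.57 RPKM in sh-Ctrl. It was level with control within replicate 1, at 101%, and at 70.6% of control within replicate 2, with log2 differences of 0.02 and -0.47. DUSP1 and KLF9 were thus each below control in a different number. The mean log2 difference of KLF9 was -0.23 with a standard error of 0.66.

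**Figure D2:**
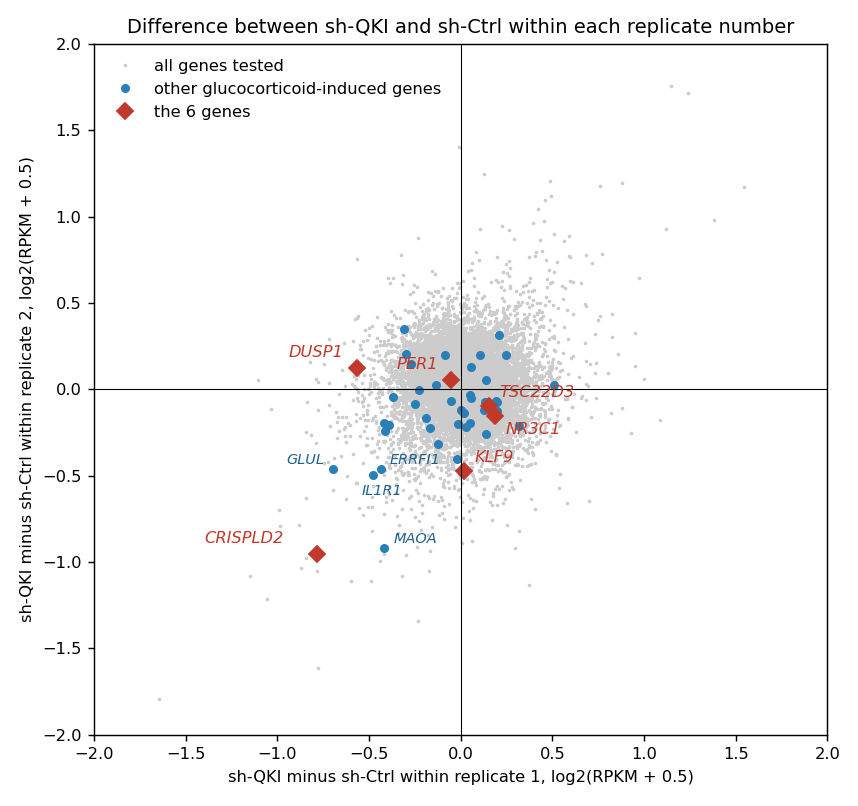
Log2 difference between sh-QKI and sh-Ctrl within replicate 1 (x axis) and within replicate 2 (y axis), on log2(RPKM + 0.5), for all genes tested (grey), other genes of the glucocorticoid-induced list (blue) and the 6 genes (red diamonds), with 2 of the genes tested outside the axes. CRISPLD2 lies at -0.79 and -0.95 in the lower left, and the other 5 genes lie where the 2 differences have opposite signs.

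In the limma fit without a block 0 of 11829 genes passed an adjusted p of 0.05 (Benjamini-Hochberg), which is 0% of the genes tested, 13 had an unadjusted p below it, and voom on the recovered reads called 0. Adding the replicate number to the fit as a block, limma called 43 genes lower (0.364%) and 58 genes higher (0.49%), and voom with the block called 137 in either direction (1.16%). With the block but without a filter on low values limma called 0 of 16708 genes, 978 of them with an unadjusted p under 0.05, an alternative chosen after the data were seen, and QKI itself was then not among those called.

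The contrast between replicate numbers did not choose the genes, and it was tested with group as a term. In it, DUSP1 was lower in replicate 2 by the widest margin of the 6, with a log2 difference of -1.35 ± 0.13 (SE) and an adjusted p of 1.87e-25 in limma. The differences were -1.005 between the sh-QKI libraries and -1.70 between the sh-Ctrl libraries. The SE and p values of this contrast rest on a spread estimated partly from other genes. The SE therefore does not show how far apart a gene's own 2 differences lie. The group differences above have larger SEs partly because their fit held no block, so the shift between numbers counted as error. With the block the SEs of the group differences were between 0.12 and 0.16 for the 6 genes, resting on the same shared spread. Without the low-value filter the adjusted p of DUSP1 between the numbers was 0.00115 in limma. PER1 was also lower in replicate 2, by a log2 difference of -0.41 ± 0.15 with an adjusted p of 0.00806 in limma, but it did not pass without the low-value filter, where its adjusted p was 0.0581. In the other planned settings it was between 0.00674 and 0.00871.

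KLF9 was higher in replicate 2, with a log2 difference of 1.27 ± 0.14 and an adjusted p of 1.37e-18 in limma, 1.02 between the sh-QKI libraries and 1.51 between the sh-Ctrl libraries. NR3C1 was higher as well, with a log2 difference of 0.84 ± 0.12 and an adjusted p of 9.76e-12 in limma, 0.67 between the sh-QKI and 1.01 between the sh-Ctrl libraries. CRISPLD2 and TSC22D3 did not pass. CRISPLD2 differed by -0.27 ± 0.14 with an adjusted p of 0.0874 in limma (0.0801 to 0.177 over the alternatives), and TSC22D3 differed by 0.04 ± 0.16 with an adjusted p of 0.845 (0.844 to 0.871). DUSP1, KLF9 and NR3C1 passed under every alternative run for this contrast, with adjusted p values of at most 0.0015. That 4 of 6 passed is close to the background, since 70.9% of all genes tested passed in this contrast.

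For CRISPLD2 the difference between groups, -0.79 and -0.95, was larger than that between the numbers, -0.35 in sh-QKI and -0.18 in sh-Ctrl. For NR3C1, PER1, DUSP1 and KLF9 the order was the reverse, each difference between the numbers exceeding each difference between the groups. TSC22D3 moved little in either, its 4 differences lying between -0.10 and 0.16.

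**Figure D3:**
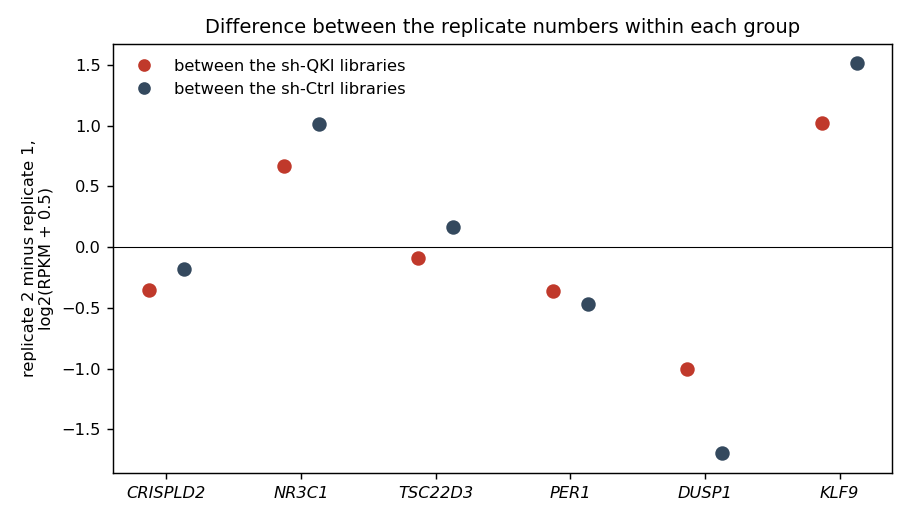
Log2 difference of replicate 2 minus replicate 1 (y axis, on log2(RPKM + 0.5)) of the 6 genes, between the sh-QKI libraries (red, left of each pair) and between the sh-Ctrl libraries (blue, right). DUSP1 lies at -1.005 and -1.70 and KLF9 at 1.02 and 1.51, whereas CRISPLD2 lies at -0.35 and -0.18.

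The wider set of genes known to be induced by glucocorticoids held 58 genes, of which 45 were tested. Without CRISPLD2 the 44 others had a median log2 difference of -0.06, from -0.67 to 0.27, beside a median of 0.03 over all genes tested. Of the 44, 16 (36.4%) were below control within both numbers, against 16.6% of all genes tested, and 6 (13.6%) were above it within both, against 31.7%. In 6 of them (13.6%) both sh-QKI libraries lay below both sh-Ctrl libraries, against 2.89% of all genes tested. The list was assembled with results of these libraries known, so these shares are a description. With the block, limma called 3 of the 44 lower, against 0.364% of all genes tested, and voom called 4 lower, against 1.16% called in either direction. MAOA is among these calls but passed the filter only through the group where it was high, so its call carries no weight. The others were GLUL and ERRFI1 in limma, and GLUL, ERRFI1 and IL1R1 in voom. Counting CRISPLD2, 9 of the 45 had an unadjusted p under 0.05 in limma with the block. That count holds the gene that the contrast chose. Over all genes this count was taken only without the low-value filter, at 978 of 16708. Nothing is read from unadjusted counts here or in the later lists.

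These genes have separate roles. Genes named from this and the later lists were picked by their sh-QKI against sh-Ctrl difference. Their p-values for that contrast are therefore a description and not independent support. MAOA, which oxidises monoamines, was at 0.13 and 0.44 RPKM in sh-QKI, against 0.34 and 1.27 RPKM in sh-Ctrl. It was lower within both numbers, by log2 differences of -0.42 and -0.92, on 15 and 88 recovered reads in sh-QKI and 39 and 255 in sh-Ctrl. Its mean was 0.28 RPKM in sh-QKI and 0.80 RPKM in sh-Ctrl, so it passed the filter only through the group where it was high, and no p is given for it. GLUL, glutamine synthetase, was at 2.81 and 2.22 RPKM in sh-QKI, against 4.86 and 3.25 RPKM in sh-Ctrl, and the groups did not overlap. Its adjusted p with the block was 0.0113 in limma and 0.000175 in voom.

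ERRFI1, an inhibitor of EGF receptor kinase, was at 7.63 and 10.2 RPKM in sh-QKI, against 10.5 and 14.3 RPKM in sh-Ctrl. The log2 differences of -0.44 and -0.46 were nearly equal in the 2 numbers, and the adjusted p with the block was 0.0413 in limma and 0.0373 in voom. IL1R1, the interleukin-1 receptor, was at 0.68 and 1.47 RPKM in sh-QKI and 1.15 and 2.29 RPKM in sh-Ctrl, with adjusted p values of 0.128 in limma and 0.0109 in voom. None of GLUL, ERRFI1 and IL1R1 passed in limma with the block and no low-value filter, where the adjusted p was between 0.497 and 0.614.

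Other targets of the list lay on either side of control. KLF6 is given with its family, and the RNA-binding protein gene ZFP36, an immediate early gene, was at 4.09 and 3.14 RPKM in sh-QKI and 5.43 and 3.25 RPKM in sh-Ctrl, below control within both numbers but not called with the block. FKBP5, an immunophilin that restrains the receptor and is among its most used reporter genes, was chosen for mention after its values were seen. It was at 10.7 and 10.98 RPKM in sh-QKI and at 10.3 and 11.2 RPKM in sh-Ctrl, a mean log2 difference of 0.01 with a standard error of 0.25. All 4 libraries of FKBP5 thus lay within 1 RPKM of each other.

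**Figure D4:**
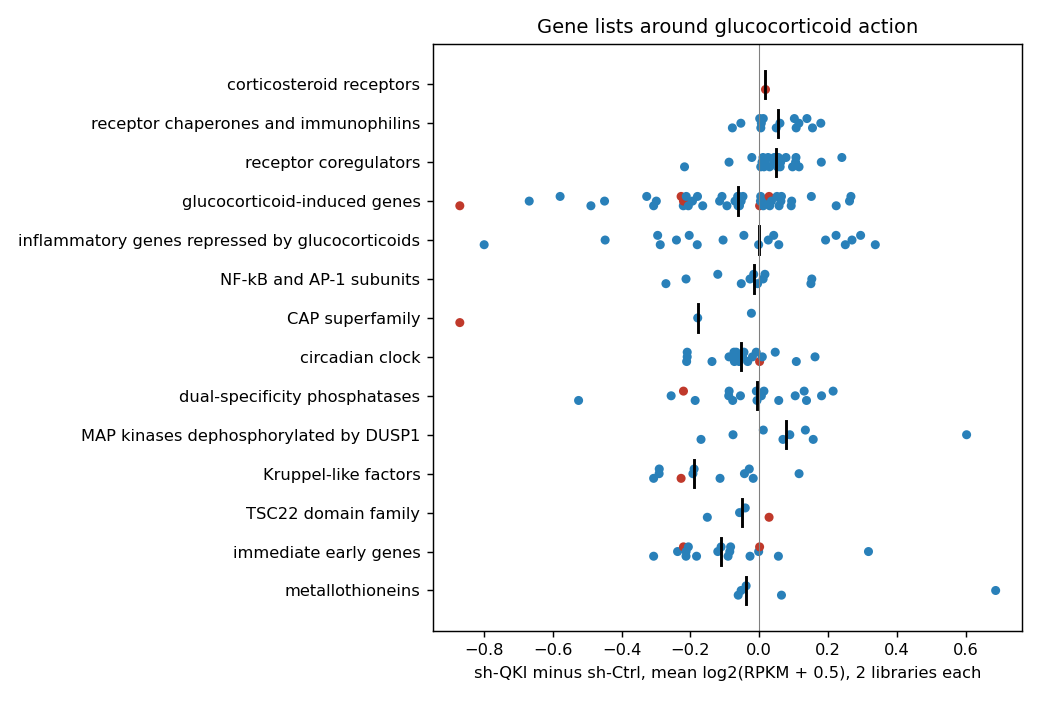
Mean log2 difference between sh-QKI and sh-Ctrl (x axis, on log2(RPKM + 0.5), 2 libraries each) of each tested gene of 14 lists (rows), with the 6 genes in red, other genes in blue and a black bar at the median of the list. CRISPLD2, at -0.87, is the lowest point of the glucocorticoid-induced genes and of the CAP superfamily, and the medians of the lists lie between -0.19 and 0.08.

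All 14 chaperones and immunophilins were tested, with a median log2 difference of 0.05 and a range of -0.08 to 0.18. None was called with the block by limma or voom and 0 had an unadjusted p under 0.05 in limma. Libraries that did not overlap between groups were seen in 0 of them, against 2.89% of all genes tested below control and 5.71% above. The widest difference within both numbers was that of FKBP4, the HSP90 co-chaperone FKBP52, at 74.1 and 28.2 RPKM in sh-QKI and 68.4 and 23.8 RPKM in sh-Ctrl. HSP90AB1 had 386 and 260 RPKM in sh-QKI and 336 and 241 RPKM in sh-Ctrl. Of 25 coregulators 24 were tested, with a median of 0.05, and here too limma and voom with the block called 0, with 0 under an unadjusted p of 0.05 in limma. Within both numbers 10 of the 24 were above control and 1 below it, against 31.7% and 16.6% of all genes tested. The deacetylase genes HDAC1 and HDAC3 lay above control without overlap, as did 5.71% of all genes tested. HDAC1 was at 43.5 and 46.1 RPKM in sh-QKI and 39.7 and 43.0 RPKM in sh-Ctrl. The coactivator NCOA3 was the lowest, with 7.16 and 10.99 RPKM in sh-QKI and 7.51 and 14.4 RPKM in sh-Ctrl, and the methyltransferase EHMT1 the highest, with 9.52 and 5.54 RPKM in sh-QKI and 8.48 and 4.33 RPKM in sh-Ctrl.

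Of the steroid receptor list NR3C1 alone reached the filter. The mineralocorticoid receptor gene NR3C2 was at 0.17 and 0.56 RPKM in sh-QKI and 0.13 and 0.61 RPKM in sh-Ctrl, high in replicate 2 of both groups as NR3C1 was. The cortisol-activating enzyme gene HSD11B1 was at 0.00 and 0.00 RPKM in sh-QKI and 0.00 and 0.05 RPKM in sh-Ctrl, and the inactivating HSD11B2 at 0.49 and 0.30 RPKM in sh-QKI and 0.42 and 0.26 RPKM in sh-Ctrl. H6PD, which supplies the cofactor of HSD11B1, was at 5.68 and 8.18 RPKM in sh-QKI and 4.59 and 7.27 RPKM in sh-Ctrl. NR3C2, HSD11B1 and HSD11B2 were chosen for mention after their values were seen.

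Of 30 inflammatory genes that glucocorticoids are known to repress, 19 were tested, with a median log2 difference of 0.00, with 0.05 in replicate 1 and -0.24 in replicate 2. With the block, 6 of the 19 had an unadjusted p under 0.05 in limma. Limma called 1 lower, against 0.364% of all genes tested. Within both numbers 7 of the 19 were below control and 5 above it, against 16.6% and 31.7% of all genes tested. PTGES, the inducible prostaglandin E synthase, was at 0.96 and 2.74 RPKM in sh-QKI, against 1.55 and 6.49 RPKM in sh-Ctrl. It was lower within both numbers, by log2 differences of -0.49 and -1.11, and the adjusted p with the block was 3.98e-05 in limma and 0.000739 in voom, but 0.523 in limma without the low-value filter. The cytokine IL6 was at 3.48 and 10.7 RPKM in sh-QKI and 4.34 and 13.3 RPKM in sh-Ctrl. The chemokine CCL2 was at 37.9 and 170 RPKM in sh-QKI and 31.7 and 135 RPKM in sh-Ctrl, so these 2 genes lay on opposite sides of control, and neither passed with the block. MMP3, a stromelysin, was at 0.90 and 0.18 RPKM in sh-QKI and 1.24 and 0.52 RPKM in sh-Ctrl and did not pass either.

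Of the 12 subunits of NF-kB and AP-1, on which the receptor and GILZ act, 11 were tested. Their median was -0.02, and with the block none was called by limma or voom, 1 having an unadjusted p under 0.05 in limma. FOSL1, an AP-1 subunit, was at 67.1 and 28.4 RPKM in sh-QKI and 91.1 and 30.6 RPKM in sh-Ctrl.

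The family of CRISPLD2 was sparse in these cells. Of 15 CAP superfamily genes 3 were tested, and CRISPLD1, the nearest relative of CRISPLD2, was at 0.00 RPKM in all but sh-Ctrl replicate 1, where it was at 0.01 RPKM. GLIPR1 was at 11.8 and 12.8 RPKM in sh-QKI and 14.1 and 13.8 RPKM in sh-Ctrl, lower without overlap by log2 differences of -0.25 and -0.11. GLIPR2 was at 4.28 and 7.86 RPKM in sh-QKI and 4.13 and 8.40 RPKM in sh-Ctrl, with the groups overlapping. Neither GLIPR1 nor GLIPR2 was called with the block by limma or voom.

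The families of the other genes were examined in turn. Of 24 clock genes 20 were tested, with a median of -0.05 and none called with the block by limma or voom, 0 having an unadjusted p under 0.05 in limma. The period genes PER2 and PER3 were level with control, PER2 at 0.73 and 0.77 RPKM in sh-QKI and 0.73 and 0.80 RPKM in sh-Ctrl, chosen for mention after its values were seen. The clock repressor BHLHE40 was at 5.06 and 7.015 RPKM in sh-QKI and 5.84 and 8.30 RPKM in sh-Ctrl.

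Of 19 dual-specificity phosphatases 18 were tested, with a median of -0.01. DUSP10, which acts on JNK and p38, was at 1.23 and 1.25 RPKM in sh-QKI and 1.34 and 1.84 RPKM in sh-Ctrl, without overlap but not called. DUSP2 was not called by limma with the block, where its adjusted p was 0.0729 (0.568 with pseudocount 0.1 and 0.913 without a filter), but was called with median centring (0.0393), with pseudocount 1 (0.00985) and by voom (0.022). Without a block limma called it when sh-Ctrl replicate 2 was left out, which leaves 1 library in that group. Its log2 differences were -1.10 within replicate 1 and 0.05 within replicate 2. It was at 3.63 and 0.12 RPKM in sh-QKI and 8.39 and 0.09 RPKM in sh-Ctrl, so its difference was seen in replicate 1, where DUSP1 also was below control.

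Of the 9 MAP kinases that DUSP1 can act on 8 were tested. With the block limma called 1 higher, against 0.49% of all genes tested. MAPK11, p38 beta, was at 6.92 and 5.16 RPKM in sh-QKI, against 5.08 and 2.77 RPKM in sh-Ctrl, without overlap, and its adjusted p with the block was 0.00319 in limma and 0.00244 in voom, but 0.527 in limma without the low-value filter. MAPK14, p38 alpha, was at 16.1 and 18.4 RPKM in sh-QKI and 14.2 and 18.3 RPKM in sh-Ctrl.

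Of 17 Kruppel-like factors 11 were tested, with a median of -0.19. Within both numbers 6 of the 11 were below control and 1 above it, against 16.6% and 31.7% of all genes tested. With the block none was called by limma or voom, 3 having an unadjusted p under 0.05 in limma. KLF6 was at 18.2 and 16.9 RPKM in sh-QKI and 24.5 and 19.4 RPKM in sh-Ctrl, and KLF7 at 3.95 and 3.30 RPKM in sh-QKI and 4.81 and 4.27 RPKM in sh-Ctrl, both without overlap. KLF9 itself was thus not one of those below control in both numbers. Of the 4 TSC22 genes, all tested, TSC22D2 alone lay below control within both numbers, at 11.1 and 14.2 RPKM in sh-QKI and 13.1 and 14.9 RPKM in sh-Ctrl.

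Of 21 immediate early genes 17 were tested. The list had a median of -0.28 in replicate 1 and of 0.07 in replicate 2, the same split as that of DUSP1, which is one of them. With the block limma and voom called 0, and 3 had an unadjusted p under 0.05 in limma. Of 11 metallothioneins 5 were tested, and these genes are near copies of each other, so their reads are uncertain. MT1M was at 1.66 and 1.31 RPKM in sh-QKI, against 1.48 and 0.26 RPKM in sh-Ctrl, on 15 and 20 recovered reads in sh-QKI and 13 and 4 in sh-Ctrl. Its adjusted p with the block was 0.0037 in limma and 0.328 in voom. MT1E, the most abundant one named here, was at 147 and 40.2 RPKM in sh-QKI and 153 and 42.1 RPKM in sh-Ctrl.

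The genes whose pattern over the 4 libraries was most like that of CRISPLD2 were sought by the smallest Euclidean distance between log2(RPKM + 0.5) values centred on each gene's mean. They were RGS4, PCDH7, CYFIP2, HIST1H2BG and GABRA3, at distances of 0.22 to 0.30. RGS4, a regulator of G-protein signalling, was at 0.99 and 0.80 RPKM in sh-QKI, against 2.06 and 2.20 RPKM in sh-Ctrl. GABRA3, a subunit of the GABA-A receptor, was at 1.29 and 1.05 RPKM in sh-QKI, against 3.21 and 3.10 RPKM in sh-Ctrl. All 5 were below control in both numbers, as the measure requires. PCDH7, a protocadherin, was at 0.36 and 0.31 RPKM in sh-QKI and 1.02 and 1.07 RPKM in sh-Ctrl, and CYFIP2, of the WAVE actin-regulating complex, at 0.80 and 0.64 RPKM in sh-QKI and 1.50 and 1.26 RPKM in sh-Ctrl. HIST1H2BG, a core histone gene with near copies, had between 3 and 13 recovered reads per library. PCDH7 averaged 0.34 RPKM in sh-QKI and 1.05 RPKM in sh-Ctrl, and HIST1H2BG 0.37 and 0.87 RPKM. Both thus passed the low-value filter only through the group where they were high.

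None of the other 5 genes was among these. The closest of them to CRISPLD2 was PER1, in place 1523 at a distance of 0.89, and the farthest was KLF9, in place 11124 at a distance of 1.67. The 5 genes most like NR3C1 were N4BP2, FTSJD1, C1orf9, KIAA1430 and DBF4, at distances of 0.02 to 0.03. DBF4, the activator of the replication kinase CDC7, was at 7.21 and 12.05 RPKM in sh-QKI and 6.30 and 13.4 RPKM in sh-Ctrl, high in replicate 2 of both groups as NR3C1 was. KLF9 was in place 3163 from NR3C1 at a distance of 0.50 and DUSP1 in place 11453 at 2.26, since KLF9 was high in the same libraries as NR3C1 and DUSP1 in the others.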

How the data were processed

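Single-end RNA-Seq was carried out by the authors on total RNA of BEAS2B cells at 2 read lengths. Reads were aligned by them with Bowtie (no version stated) to hg19 and to exon junctions of Ensembl protein-coding genes, with up to 3 mismatches, and ambiguous reads were left out. The deposited tables, 1 for each library, hold RPKM values that the authors calculated. Where a library does not list a gene, 0 was used.

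The log2(RPKM + 0.5) values of genes averaging 0.5 RPKM or more were fitted with limma 3.58.1 (R 4.3.3), its mean-variance trend included, two-sided, with Benjamini-Hochberg adjustment over all 11829 genes and a threshold of 0.05. A fold change on this scale understates that of low genes. Blocking on the replicate number was an alternative, as were other pseudocounts (0.1 and 1), other filters, median centring, voom and leaving out each library. Replicate 2 minus replicate 1 correlated at 0.953 across genes between the groups. With 2 pairs and no stated shared culture or day, the number is treated as a batch and not as a pairing, and genes are not independent replicates.

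The RPKM values were turned back into whole reads, 100% within a relative tolerance of 1e-11, with the authors' totals. They are too low by any factor that all 4 counts of a gene and its length share. Recovered gene lengths had a median of 1.32 times the merged annotated exons, and 2.23 times for NR3C1 and 2.25 times for DUSP1, so a read may have been counted more than once. Levels are therefore compared within a gene, and no counting interval is given. Strand use in counting is not stated. The fits were also run on simulated reads with the same noise for every gene. Genes in these libraries need not share 1 noise level, so nothing is drawn from that run.

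The 6 genes and the 20 gene lists were chosen with earlier results of these data known. Named from each list were up to 4 genes with the widest difference in the same direction within both numbers, and any called with the block. Some of these are given only within their list's counts. Other genes named from the lists, such as KRT8, CDH1, PTPRC, CRISPLD1, GLIPR2 and PER3, were chosen for mention after their values were seen. The 5 genes most like CRISPLD2 and the 5 most like NR3C1 were named by distance. Sequences are from RefSeq (GRCh38.p14 promoters), from the hg19 annotation of GENCODE and from the study's oligonucleotide list.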

Additional observations from a re-analysis of the deposited data

How the results depend on the processing

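The count of genes called between sh-QKI and sh-Ctrl depended on the block. Without it limma called 0 genes under both other pseudocounts, both other filters, median centring and voom, and between 0 and 3 genes when 1 library was left out (0 to 1 among the genes of the lists, DUSP2 without sh-Ctrl replicate 2). With the replicate block it called 101 of 11829 genes (0.364% lower and 0.49% higher), 7 of them in the lists. These 7 hold CRISPLD2, which the contrast chose, and MAOA. Genes tested were not counted over the lists together, so nothing is read from the 7 or from the list counts that follow. With the block, voom called 137 (8 in the lists) and median centring 114 (8), and, chosen after seeing the data, pseudocount 0.1 gave 112 (7), pseudocount 1 gave 104 (8) and no filter gave 0. The cause was not tested. CRISPLD2 was below control under every alternative run, between -1.04 and -0.69 without 1 library, -1.01 with voom and -0.77 with pseudocount 1. TSC22D3 was at 0.15 within replicate 1 and -0.10 within replicate 2. Without 1 library NR3C1 lay between -0.49 and 0.52, DUSP1 between -1.07 and 0.63, KLF9 between -0.98 and 0.53 and PER1 between -0.23 and 0.24, since the replicate numbers are then unbalanced between the groups. NR3C1, TSC22D3 and PER1 changed sign under median centring, which moved them by 0.03. Between the numbers, 3 of the 6 genes passed without a filter, PER1 being lost. With 2 libraries a group, the small differences of the 5 genes beside CRISPLD2 are not shown to be absent. Low genes such as MAOA and MT1M rest on few reads.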
